A study of Mus musculus with 14 samples.

Results

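The protocadherins measured here were the 30 genes whose symbols start with Pcdh and that had at least 1 probe set assigned to a single gene on an Affymetrix mouse array, out of 12393 genes with such a probe set. Together they had 36 probe sets. Where a gene had several, the probe set with the highest mean over the 14 arrays stood for it, a choice that did not use genotype. Of the 30 genes, 22 were clustered and 8 non-clustered. All 22 clustered genes were Pcdhb genes, the full set of 22 in the RefSeq gene table, next to each other on chromosome 18. No probe set carried a single Pcdha symbol or any Pcdhg symbol. The non-clustered members were Pcdh1, Pcdh7, Pcdh8, Pcdh10, Pcdh12, Pcdh15, Pcdh18 and Pcdh20.

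RNA came from the striatum of 6-week-old R6/2 mice and wild-type mice on a CBAxC57BL/6 background. R6/2 is a transgenic model of Huntington disease: exon 1 of human HTT, with an expanded CAG repeat, is expressed from the human promoter. All were saline controls of 2 drug studies, injected 30 to 60 minutes before they were killed. Titles starting M.C marked a cohort of 4 R6/2 and 4 wild-type arrays (replicates 1 to 4 of each genotype). Titles starting Mith marked one of 3 R6/2 and 3 wild-type arrays (replicates 5 to 7). The replicate numbers were assigned here in accession order, only name the arrays, and pair none of them. Whether every array had its own animal is not stated. The p-values rest on the spread between arrays, which may be technical, and few arrays limit their precision. The repeat length, the sex and any pooling of animals are not given in the sources used here. Signals that bear on the sex are given below.

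Protocadherins are cadherin-related cell adhesion proteins of the nervous system. Clustered genes lie in the alpha, beta and gamma groups, and single neurons use small random-looking combinations of them, chosen at each gene's own promoter with CTCF and cohesin. Proteins with matching combinations bind between cells, and this recognition lets the branches of a neuron avoid each other. Alpha and gamma genes splice their variable exons to shared constant exons, whereas each beta gene is a single exon that encodes a whole protein without that shared tail. Non-clustered protocadherins are encoded by separate genes and take part in axon growth, synapse turnover and adhesion in particular regions or cell types.

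Values are log2 probe set signals centred to a common median. Differences are R6/2 minus wild-type on the log2 scale with cohort as a term, ± gives the SE, and "called" means a limma p adjusted over all 22626 probe sets under 0.05. Signals of different probe sets share no scale, so levels are not compared between genes. The mean signals of the 30 genes ran from 3.38 (Pcdhb22) to 7.88 (Pcdh10). The table holds no detection calls, so how many of them were above background is not known here. On every array Xist was high (10.4 to 11.2) and Y-linked Eif2s3y low (3.28 to 3.475), a pattern of female tissue. The 13 probe sets of Y-linked genes had mean signals from 3.41 to 7.65, with a median of 4.75. Of the 30 members, 29 had means at or below the highest of these, Pcdhb9 (6.44) among them, and 5 at or below the median. Whether Pcdhb9 stood above background was not tested.

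Cell type markers and RNA quality differed between the arrays. The 7 measured markers of striatal projection neurons had mean signals from 6.55 (Pdyn) to 11.4 (Penk). These signals share no scale and do not by themselves mark the tissue as striatum. Of these 7, 5 were called lower in R6/2 (Ppp1r1b, Penk, Drd2, Pde10a and Rgs9). Over all probe sets 2.19% were called lower, the share to set beside each list in this paragraph. Pdyn lay below 0 and was not called (-0.33 ± 0.09, adjusted p = 0.0537). Tac1 lay above 0 (0.07 ± 0.10, adjusted p = 0.787). Of the 5, Penk alone was also called with the Actb covariate described next. The list's mean, set to 0 over all arrays, ran from -0.498 to -0.121 in R6/2 and from -0.164 to 0.56 in wild-type. Of 8 mature oligodendrocyte genes 4 fell (Mobp, Cldn11, Ugt8a and Mag; list median -0.34), and 2 of these, Mobp and Ugt8a, were called with that covariate. All 7 astrocyte genes and all 5 oligodendrocyte precursor genes lay below 0, with 1 of each called (Gja1 and Olig2), neither with the covariate. In bulk tissue, fewer cells of a type and less RNA per cell cannot be told apart. The difference between the 3′ and 5′ Actb control probe sets, a usual sign of RNA degradation, had a mean of 0.608 (SD 0.181) over the 7 R6/2 arrays and 0.373 (SD 0.143) over the 7 wild-type arrays, with a two-sided exact permutation p = 0.0186 within cohorts. R6/2 replicate 4 stood apart, with a mean Spearman correlation of 0.981 to the rest of its cohort, where every other array had 0.986 to 0.992.

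The main comparison asked which protocadherins differed between R6/2 and wild-type striatum over both cohorts. One of the 30, Pcdhb9, rose in R6/2, to 130% of the wild-type signal, and 0 fell. The largest differences among the others were 0.26 for Pcdhb21 and 0.26 for Pcdh20, neither called. Over all probe sets 2.55% were called, 0.362% as higher and 2.19% as lower. The family was taken up with the rise of Pcdhb9 known, so that call is a description and not independent support for the family.

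Pcdhb9 had wild-type signals of 6.23, 6.29, 6.15 and 6.06 in M.C and 6.43, 6.10 and 6.49 in Mith. The R6/2 signals were 6.40, 6.56, 6.64 and 6.32 in M.C and 6.71, 6.77 and 6.96 in Mith. Within each cohort every R6/2 array lay above every wild-type array, an order that 0.389% of all probe sets shared. The 2 highest wild-type arrays of Mith, however, lay above the lowest 2 R6/2 arrays of M.C, so the genotypes overlapped when the cohorts were pooled. The difference was 0.38 ± 0.08 (adjusted p = 0.0141, 95% interval 0.22 to 0.53). It was 0.30 ± 0.09 within M.C (adjusted p = 0.0982) and 0.48 ± 0.12 within Mith (adjusted p = 0.323), called in neither cohort alone.

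The Pcdhb9 call held in each of 14 fits with 1 array left out, where the difference ran from 0.32 to 0.41 and the adjusted p from 0.00637 to 0.0379. With the Actb measure of RNA quality as a covariate it was 0.35 ± 0.10 and not called (adjusted p = 0.174), in a fit that called 0.248% of all probe sets. Beyond this covariate, the part of RNA quality, and of the lower neuronal and glial markers, in the Pcdhb9 difference was not tested. Pcdhb9 has a single probe set here, and the beta genes are close in sequence, and whether related beta transcripts add to its signal was not tested.

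**Figure D1:**
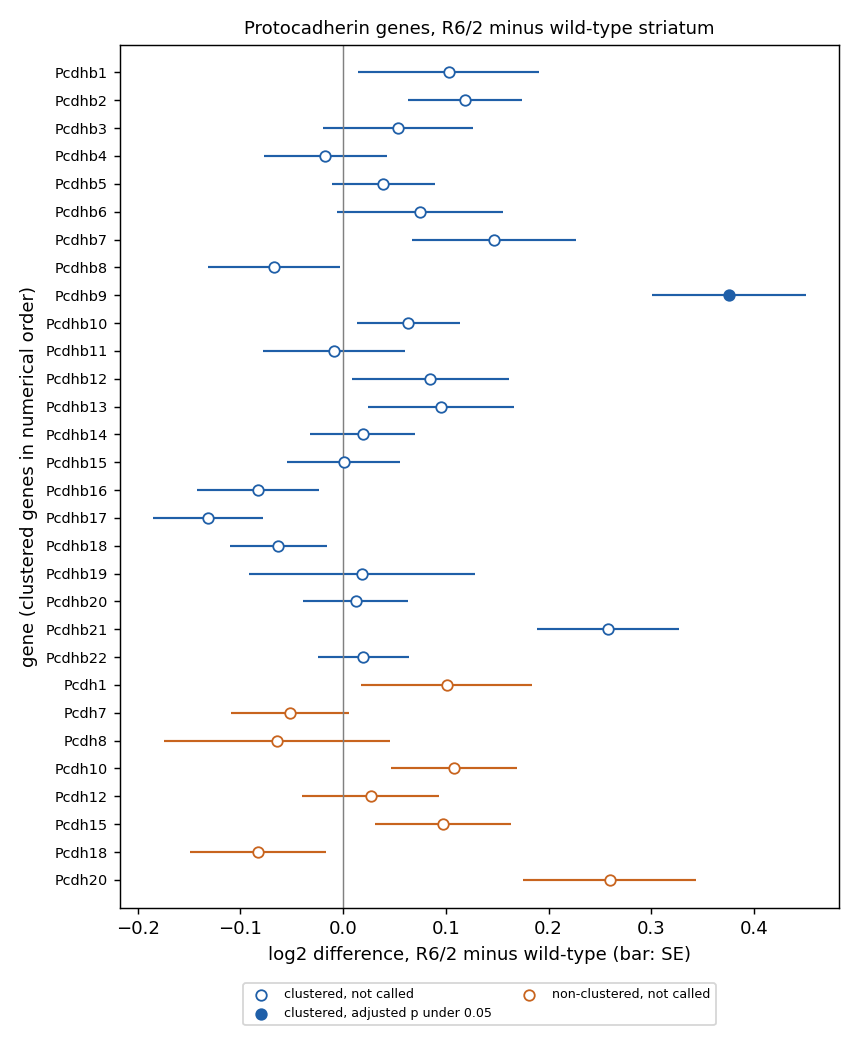
Log2 difference of each protocadherin gene, R6/2 minus wild-type over both cohorts (horizontal axis, bars are SE, 7 arrays per genotype), with clustered genes above non-clustered genes. Filled points passed an adjusted p under 0.05. Pcdhb9 at 0.38 is the only filled point, and Pcdhb21 and Pcdh20 follow at 0.26.

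Pcdhb21 lay just outside the threshold. Its wild-type signals were 7.35, 7.53, 7.44 and 7.39 in M.C and 6.98, 7.11 and 6.92 in Mith, and its R6/2 signals were 7.79, 7.69, 7.96 and 7.58 in M.C and 7.06, 7.36 and 7.08 in Mith. The genotypes did not overlap in M.C, while in Mith wild-type replicate 6 lay above R6/2 replicates 5 and 7. The difference was 0.26 ± 0.07 (adjusted p = 0.0575), or 120% of wild-type. Of 14 fits with 1 array left out, 3 called it. They were those without R6/2 replicate 4 (adjusted p = 0.0317), R6/2 replicate 5 (0.0371) and wild-type replicate 6 (0.0414). In these 3 the count of called members went from 1 to 2, while in the rest the adjusted p reached 0.122. With the Actb covariate the Pcdhb21 difference was 0.23 ± 0.09 and not called (adjusted p = 0.34).

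Pcdh20 had the largest difference among non-clustered genes. Its wild-type signals were 6.77, 7.16, 7.29 and 7.07 in M.C and 7.20, 7.16 and 7.03 in Mith, against 7.22, 7.52, 7.53 and 7.23 and then 7.55, 7.25 and 7.20 in R6/2. Wild-type replicate 3 lay above 2 of the R6/2 arrays of M.C, so the groups overlapped there. In Mith they met at 7.20, with no R6/2 array below a wild-type one. The difference was 0.26 ± 0.08 (adjusted p = 0.123). Its other probe set, of lower signal, gave 0.13 ± 0.06 over both cohorts (adjusted p = 0.333), the same direction. That probe set gave 0.23 ± 0.07 in M.C (adjusted p = 0.116) but -0.003 ± 0.099 in Mith (adjusted p = 0.998).

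**Figure D2:**
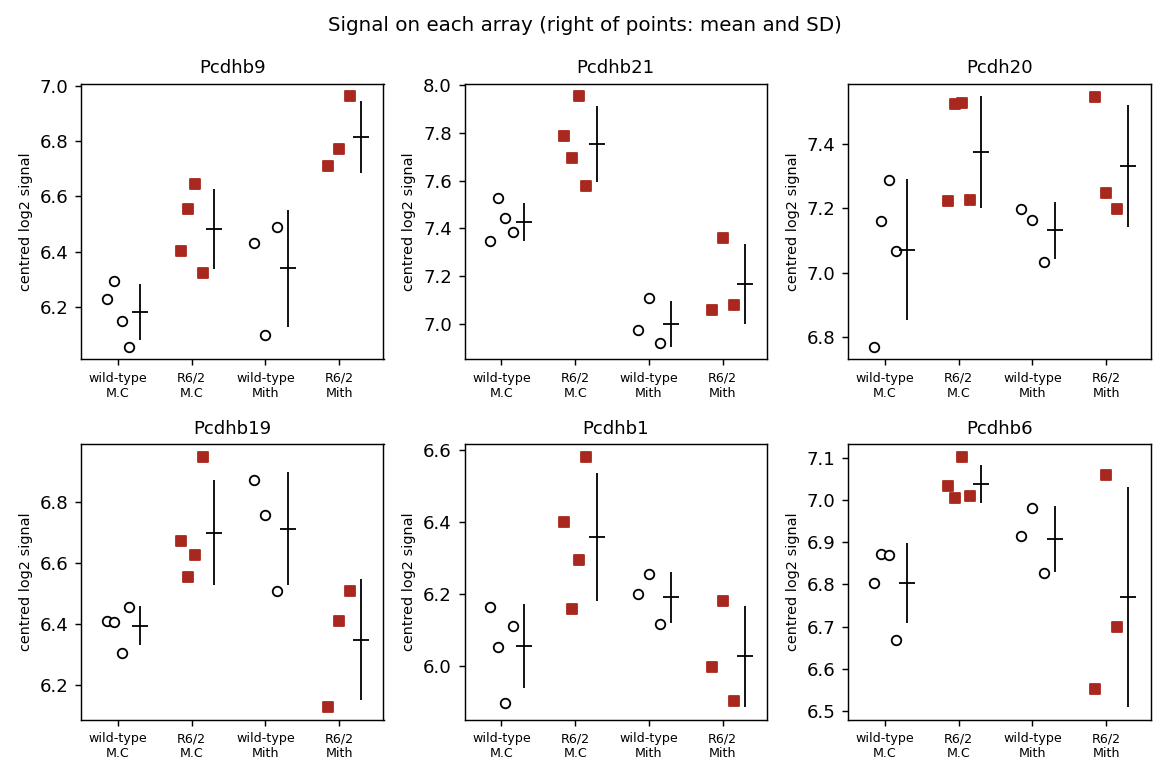
Centred log2 signal (vertical axis, scaled to each gene) on every array for 6 protocadherin genes, by genotype and cohort. Open circles are wild-type, filled squares R6/2, and the bar to the right of each group is its mean and SD. Pcdhb9 is higher in R6/2 in both cohorts, while Pcdhb19 is higher in M.C and lower in Mith.

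No other beta gene was called by genotype. Of the 22 clustered genes 16 lay above 0, with a median of 0.03 and a range from -0.13 to 0.38. Differences above 0 made up 54.8% of all probe sets, whose median was 0.01. Of the 30 members 21 had a difference smaller than 0.1 in either direction, as had 69.3% of all probe sets. At an unadjusted p under 0.05 there were 5 members, 4 higher and 1 lower, that is 16.7% where all probe sets gave 15.2% (5.69% as higher). The share of members at that p in either direction was thus near the background. By direction, 4 of 30 were higher beside 5.69% of all probe sets, and 1 of 30 lower beside 2157 of 22626.

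At the 5′ end of the cluster Pcdhb1 was at 0.10, Pcdhb2 at 0.12 ± 0.06 (adjusted p = 0.322), Pcdhb3 at 0.05, Pcdhb4 at -0.02, Pcdhb5 at 0.04 and Pcdhb6 at 0.07. Pcdhb7 was at 0.15 ± 0.08 (adjusted p = 0.409) and Pcdhb8 at -0.07. Pcdhb7 and Pcdhb8 precede Pcdhb9 in the array of genes, and Pcdhb10 (0.06) and Pcdhb11 (-0.01) follow it. None of these 4 neighbours was called, so the rise of Pcdhb9 was not accompanied by a call next to it. Further along, Pcdhb12 was at 0.08, Pcdhb13 at 0.10, Pcdhb14 at 0.02, Pcdhb15 at 0.00, Pcdhb16 at -0.08 and Pcdhb17 at -0.13. The 3 adjacent genes Pcdhb16, Pcdhb17 and Pcdhb18 (-0.06) all lay below 0, and none was called. At the 3′ end Pcdhb19 was at 0.02, Pcdhb20 at 0.01 and Pcdhb22 at 0.02, beside Pcdhb21.

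Pcdhb17 had the lowest difference of the family, at 91.3% of the wild-type signal. Its wild-type signals were 6.17, 6.13, 5.98 and 6.04 in M.C and 5.95, 6.03 and 6.01 in Mith, and its R6/2 signals were 5.96, 5.87, 6.11 and 5.91, then 5.75, 5.95 and 5.82. The groups overlapped in M.C, and in Mith they met, with R6/2 replicate 6 level with wild-type replicate 5 to 2 decimals. The difference was -0.13 ± 0.05 (adjusted p = 0.241). Pcdhb2 went the other way, with wild-type signals of 6.49, 6.52, 6.54 and 6.49 in M.C and 6.45, 6.50 and 6.38 in Mith. In R6/2 they were 6.63, 6.61, 6.50 and 6.88, then 6.54, 6.48 and 6.56, and R6/2 replicate 4 was the highest. Pcdhb7 had wild-type signals of 5.60, 5.60, 5.29 and 5.58 in M.C and 5.92, 5.75 and 5.78 in Mith, with wild-type replicate 3 the lowest of all. Its R6/2 signals were 5.91, 5.69, 5.92 and 5.53, then 5.65, 5.87 and 5.99, and the groups overlapped in both cohorts.

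Among non-clustered genes 5 of 8 lay above 0, with a median of 0.06, and 0 were called. Pcdh10, which helps the axons of striatal neurons to grow, was at 0.11 ± 0.06 (adjusted p = 0.437), but its other probe set gave -0.15 ± 0.08 (adjusted p = 0.375). Its 2 probe sets thus opposed each other, and no direction can be given for the gene. Pcdh1, an adhesion protein of epithelia and vessels as well as brain, was at 0.10, and Pcdh15, a part of the tip links of hair cells, at 0.10. Pcdh12, a protein of endothelial cells, was at 0.03. Pcdh7, also called NF-protocadherin, was at -0.05, with -0.02 for its other probe set. Pcdh8, also called arcadlin and induced by neuronal activity, was at -0.06 ± 0.11 and had the largest spread between arrays of the family, an SD of 0.251 within genotype and cohort.

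Pcdh18 had the lowest difference of the non-clustered genes, -0.08 ± 0.07 (adjusted p = 0.603). Its wild-type signals were 7.10, 7.13, 7.19 and 7.10 in M.C and 7.52, 7.19 and 7.18 in Mith, and its R6/2 signals were 7.07, 7.17, 7.11 and 6.90, then 7.26, 7.02 and 7.29. The groups overlapped in both cohorts. Its other 2 probe sets, of lower signal, gave 0.06 and 0.11.

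The alpha group was represented by 6 probe sets that list 9 or 14 Pcdha genes each and so stand for no single gene. Their genotype differences ran from -0.03 to 0.05, none called. Each of the 6 differences was smaller than its own SE.

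Each cohort was also tested alone. In M.C 0 of 30 members were called, beside 2.47% of all probe sets, and in Mith 0 of 30, beside 0% (0 of 22626 probe sets, with 8.87% at an unadjusted p under 0.05). In M.C 18 of 22 clustered genes and 5 of 8 non-clustered genes lay above 0, with medians of 0.07 and 0.11. Together that made 23 of 30, beside 53.1% of all probe sets. Of the 30, 9 had an unadjusted p under 0.05, all higher in R6/2, where 6.38% of all probe sets were such and 16.7% passed in either direction. The genotypes did not overlap in M.C for 5 members (Pcdhb6, Pcdhb9, Pcdhb13, Pcdhb19 and Pcdhb21), all higher in R6/2, beside 11.2% of all probe sets in either direction. The 9 with an unadjusted p under 0.05 were Pcdhb1, Pcdhb6, Pcdhb7, Pcdhb9, Pcdhb13, Pcdhb19, Pcdhb21, Pcdh10 and Pcdh20. The other Pcdh10 probe set went the opposite way in M.C, at -0.19 ± 0.10 (adjusted p = 0.379). With 1 array left out the number higher ran from 6, without wild-type replicate 3, to 8. Without R6/2 replicate 4 Pcdhb21 (0.39 ± 0.08, adjusted p = 0.0182) and Pcdhb9 (0.35 ± 0.08, adjusted p = 0.0327) were called in M.C.

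In Mith 9 of 22 clustered genes and 4 of 8 non-clustered genes lay above 0, with medians of -0.04 and 0.01. Together 13 of 30 lay above 0, beside 50.4% of all probe sets. At an unadjusted p under 0.05 there were 2 members, Pcdhb9 higher and Pcdhb19 lower, and the share of 6.67% lay below the 8.87% of all probe sets. Groups did not overlap in Mith for 3 members, Pcdhb9 and Pcdh20 with R6/2 above and Pcdhb20 with R6/2 below, beside 12.9% of all probe sets. For Pcdh20 the lowest R6/2 array (7.1990) barely passed the highest wild-type array (7.1986). The other Pcdh20 probe set gave -0.003 ± 0.099 in Mith. Over both cohorts 18 of 30 members kept 1 sign, 60.0% beside 53.1% of all probe sets.

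**Figure D3:**
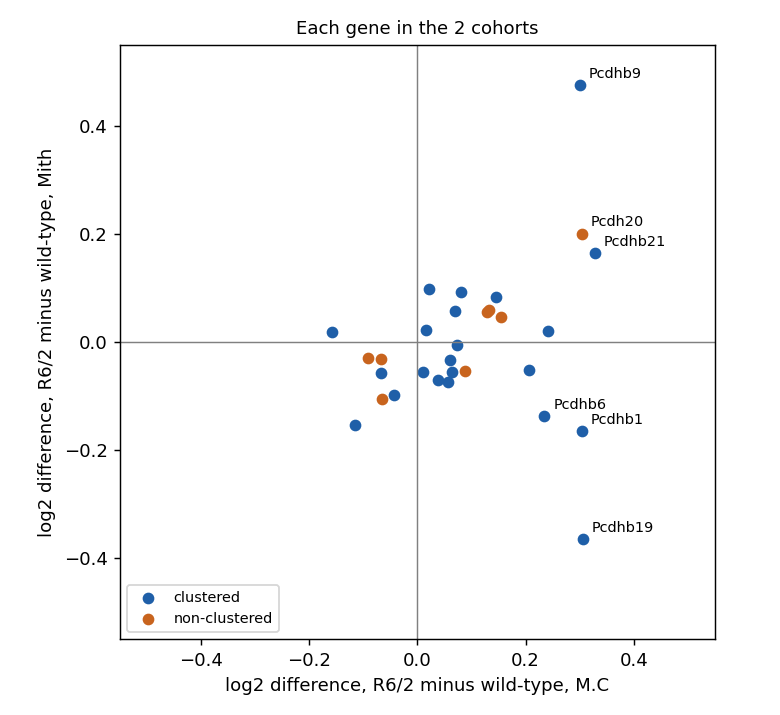
Log2 difference, R6/2 minus wild-type, of each protocadherin gene in the M.C cohort (horizontal axis, 4 arrays per genotype) and in the Mith cohort (vertical axis, 3 arrays per genotype). Pcdhb9 lies in the upper right at 0.30 and 0.48, and Pcdhb19 in the lower right at 0.31 and -0.36.

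The difference between the cohorts was tested as an interaction, in which 0 of 30 members and 0% of all probe sets were called. At an unadjusted p under 0.05 there were 3 of 30 members, beside 9.78% of all probe sets. The 3 were Pcdhb19, Pcdhb1 and Pcdhb6, each higher in R6/2 in M.C and lower in Mith. Pcdhb19 had wild-type signals of 6.41, 6.41, 6.31 and 6.46 and R6/2 signals of 6.67, 6.55, 6.63 and 6.95 in M.C, where the groups did not overlap. In Mith the wild-type signals were 6.87, 6.76 and 6.51 and the R6/2 signals 6.13, 6.41 and 6.51. There wild-type replicate 7 and R6/2 replicate 7 were level, and the other wild-type arrays lay above every R6/2 array. The differences were 0.31 ± 0.09 and -0.36 ± 0.13, and they differed by 0.67 ± 0.16 (adjusted p = 0.268).

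Pcdhb1 went from 0.30 ± 0.10 in M.C to -0.17 ± 0.10 in Mith, 0.47 ± 0.14 apart (adjusted p = 0.352). Its wild-type signals were 6.16, 6.05, 5.89 and 6.11 in M.C and 6.20, 6.26 and 6.12 in Mith, and its R6/2 signals were 6.40, 6.16, 6.29 and 6.58, then 6.00, 6.18 and 5.90. R6/2 replicate 4 was the highest array for this gene, and the groups overlapped in both cohorts. Pcdhb6 went from 0.23 ± 0.07 to -0.14 ± 0.13, 0.37 ± 0.14 apart (adjusted p = 0.421). Its wild-type signals were 6.80, 6.87, 6.87 and 6.67 in M.C and 6.92, 6.98 and 6.83 in Mith. In R6/2 they were 7.03, 7.01, 7.10 and 7.01 in M.C, all above wild-type, and 6.55, 7.06 and 6.70 in Mith, where R6/2 replicate 6 lay above every wild-type array. Of 7 markers of thalamus, a bordering tissue, 0 were called by genotype in Mith and 5 had an unadjusted p under 0.05, all lower in R6/2. The mean of these 7 genes, set to 0 over all arrays, was 0.279, -0.126 and 0.0895 in R6/2 and 0.823, 0.293 and 0.991 in wild-type. In M.C it ran from -0.401 to -0.202 over all 8 arrays. Of the 7 thalamic genes 1, Tnnt1, was called lower in R6/2 in M.C (-0.44 ± 0.10, adjusted p = 0.0372), beside 2.47% of all probe sets in either direction. It was also called over both cohorts (-0.57 ± 0.11, adjusted p = 0.0105), but not with the Actb covariate (adjusted p = 0.144). In M.C 3 of the 7 lay above 0. The part of bordering tissue in these differences was not tested.

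More members differed between the cohorts than between the genotypes. With genotype as a term, 7 of 30 members differed between M.C and Mith, 4 higher and 3 lower in M.C, a share of 23.3% beside 32.3% of all probe sets (15.3% higher, 17% lower). Pcdhb21 was 1.42 times as high in M.C (0.51 ± 0.07, adjusted p = 5.85e-05), and every M.C array except wild-type replicate 1 lay above every Mith array. Pcdh10 was 1.35 times as high (0.44 ± 0.06, adjusted p = 7.42e-05). Its signals were 8.18, 8.05, 8.18 and 8.18 in R6/2 and 8.08, 7.99, 7.97 and 7.93 in wild-type of M.C. In Mith they were 7.82, 7.67 and 7.47 in R6/2 and 7.46, 7.67 and 7.69 in wild-type, all below M.C. The other Pcdh10 probe set did not follow, at -0.07 ± 0.08 (adjusted p = 0.55).

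Pcdh12 was higher in M.C by 0.25 ± 0.07 (adjusted p = 0.00837). Its signals were 6.86, 6.91, 6.78 and 6.98 in R6/2 and 6.87, 6.72, 6.85 and 6.74 in wild-type of M.C. In Mith they were 6.55, 6.63 and 6.49 in R6/2 and 6.69, 6.80 and 6.35 in wild-type, where wild-type replicate 6 alone lay within the M.C range. Pcdhb5 was higher by 0.15 ± 0.05 (adjusted p = 0.0298), with signals of 7.21, 7.15, 7.21 and 7.18 in R6/2 and 7.23, 7.01, 7.11 and 7.11 in wild-type of M.C. In Mith they were 6.96, 6.96 and 7.07, then 6.90, 7.10 and 7.01. The Pcdhb5 call did not hold in 6 of the 14 leave-out fits, those without R6/2 replicates 1, 3, 5 or 6 or wild-type replicates 1 or 5.

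Pcdhb9 was lower in M.C by 0.25 ± 0.08 (-0.25, adjusted p = 0.02), the reverse of Pcdhb21, and this call was lost without R6/2 replicate 7 and without wild-type replicate 7. Pcdh7 was also lower in M.C (-0.23 ± 0.06, adjusted p = 0.00658). Its signals were 7.52, 7.39, 7.29 and 7.53 in R6/2 and 7.54, 7.46, 7.47 and 7.54 in wild-type of M.C. In Mith they were 7.68, 7.72 and 7.63, then 7.55, 7.87 and 7.70, and every Mith array lay above every M.C array. The other Pcdh7 probe set gave a smaller cohort difference, -0.08 ± 0.05, and was not called (adjusted p = 0.269). Pcdhb10 was lower by 0.16 ± 0.05 (-0.16, adjusted p = 0.0255). Its M.C signals were 4.20, 4.07, 4.22 and 4.06 in R6/2 and 4.03, 4.12, 4.15 and 3.998 in wild-type, and its Mith signals 4.34, 4.23 and 4.29, then 4.15, 4.21 and 4.34. The cohorts overlapped, and the call was lost without R6/2 replicate 5 and without wild-type replicate 7.

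**Figure D4:**
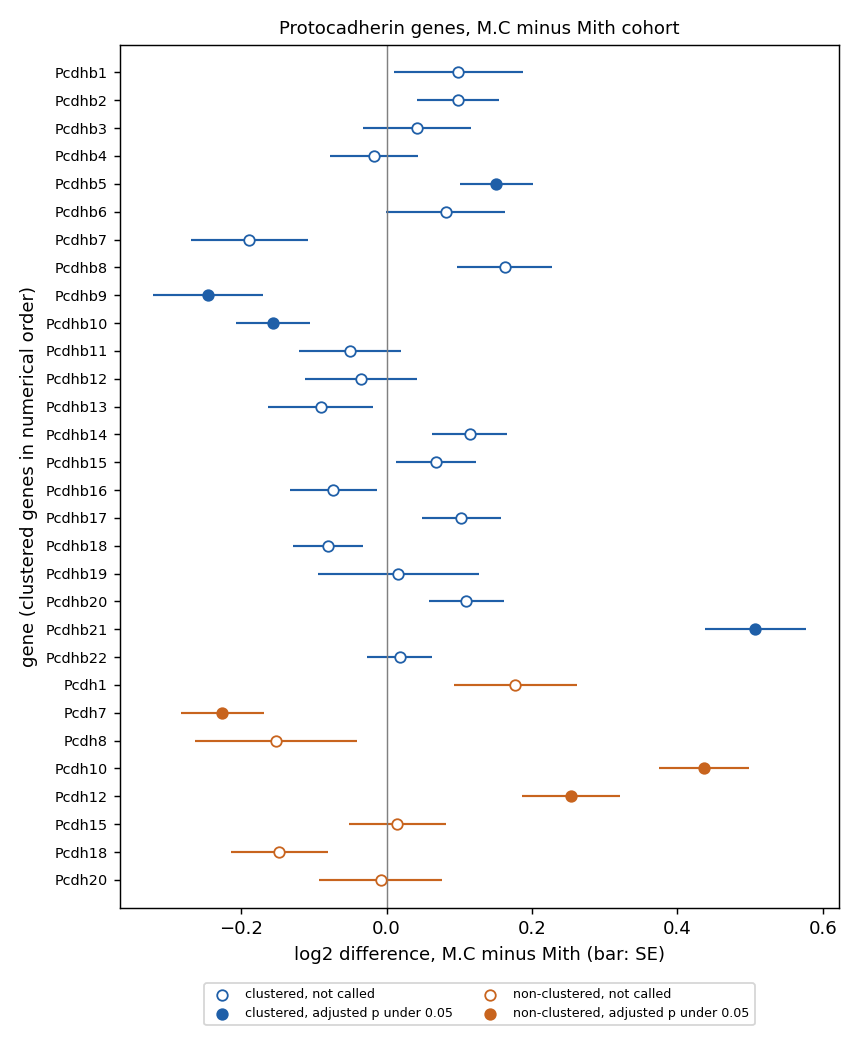
Log2 difference of each protocadherin gene, M.C minus Mith with genotype as a term (horizontal axis, bars are SE, 8 and 6 arrays), with clustered genes above non-clustered genes. Filled points passed an adjusted p under 0.05. Pcdhb21 at 0.51 and Pcdh10 at 0.44 stand furthest to the right, and Pcdhb9 at -0.25 furthest to the left.

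The alpha probe sets differed by cohort as well, 4 of 6 called, 3 higher and 1 lower in M.C, from -0.29 to 0.35. These 6 probe sets list overlapping sets of genes and yet did not share a direction. Markers of other cells moved between the cohorts. Of thalamic genes 6 of 7 were called lower in M.C, and of mature oligodendrocyte genes 8 of 8, beside 17% of all probe sets. The list medians were -0.40 and -0.82, and no gene of either list lay above 0. The part of tissue composition in the cohort differences of the protocadherins was not tested. The labels do not state what separated the cohorts beyond their titles, so causes of the cohort differences cannot be told apart.

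Genes that act with protocadherins were listed and counted in the same fit. Regulators of transcription from the clusters were represented by 13 of 16 listed genes, including Ctcf, the cohesin subunits Rad21, Smc1a and Smc3, and the DNA methyltransferases. Of these 13, 0 were called, the median was -0.01, and none passed an unadjusted p under 0.05. The smallest p was that of Dnmt3a, a DNA methyltransferase, at -0.18 ± 0.09 (adjusted p = 0.339), followed by Rad21 at -0.09 ± 0.05 (adjusted p = 0.418).

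Intracellular and membrane partners were represented by 19 of 24 listed genes. Of these 1 fell and 0 rose, 5.26% beside 2.55% of all probe sets, and the median was -0.15 where all probe sets had 0.01. At an unadjusted p under 0.05 there were 7 of 19, all lower, 36.8% beside 15.2% of all probe sets. The one called was Gsk3b, a kinase of the Wnt pathway, at 70.7% of wild-type (-0.50 ± 0.12, adjusted p = 0.0412), which was not called with the Actb covariate (-0.47 ± 0.16, adjusted p = 0.284). The list's mean was lowest in R6/2 replicate 4, the array that stood apart, at -0.281.

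Other cadherin superfamily genes, 27 in all, had a median of -0.03, and 1 of them fell while 0 rose, 3.70% beside 2.55% of all probe sets. It was Clstn3, a calsyntenin of the postsynaptic membrane, at 83.5% of wild-type (-0.26 ± 0.06, adjusted p = 0.0315), not called with the Actb covariate (adjusted p = 0.178).

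The genes whose signals most resembled that of Pcdhb9 over the 14 arrays, once genotype and cohort were taken out, were Pacrgl, Pfdn6, Ripor2, Ndufb10 and Aatf, with Pearson r from 0.951 down to 0.861. This is a description over 14 arrays that share their cohorts and RNA quality. None of the 5 was called by genotype. The most alike protocadherin was Pcdh18, with r of 0.397, so no other member followed Pcdhb9 closely in the same direction. Inverse relations were stronger, with r of -0.724 for Pcdh7 and -0.718 for Pcdhb4.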

How the data were processed

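The deposited table gives log2 probe set signals, a unit read from the values (2.96 to 14.5, none missing). The summarisation and scaling that the authors applied are not stated here. After 64 control probe sets were left out, 22626 were tested. Array medians ran from 7.07 to 7.17, and arrays were shifted to share one median. Gene symbols were those of the platform annotation: 20380 probe sets had 1 symbol, 691 several and 1555 none, and all 30 members matched the mouse RefSeq table by gene ID.

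Genotype with cohort as a term, each cohort alone, their interaction, and cohort with genotype as a term were fitted with limma 3.58.1 in R 4.3.3 (two-sided moderated test, Benjamini-Hochberg over all probe sets, called under 0.05). The genotype fit over both cohorts was also run on simulated data with independent errors. That run held no difference in RNA quality between genotypes, and its outcome is not given here. Control differences were compared by exact permutation of genotype within cohorts, 1400 arrangements. Figures and summaries used Python 3.11.15.

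Every member is named. Array values are given for members called in any of these 5 fits over all their arrays, the 6 smallest p-values by genotype, the extremes of each class, the 3 smallest interaction p-values and the largest cohort differences. Members, gene lists and rule were chosen with earlier results of these data known. Alternatives covered the cohort term, scaling, dim probe sets, variances, array weights, the Actb covariate, averaged probe sets, a 0.01 threshold and each array left out. No sequences are shown.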

Additional observations from a re-analysis of the deposited data

Results flagged for a closer look

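In the 4 arrays of a genotype in M.C, 1 array stood far from the other 3, by Dixon's criterion, for 5 of 60 combinations of gene and genotype, where chance gives about 1 in 20. Wild-type replicate 3 was the array in 3 of the 5. It was lowest for Pcdhb7, at 5.29 where the others ran from 5.58 to 5.605, and for Pcdhb13, at 5.48 where the others reached 5.62. It was highest for Pcdhb14, at 4.61 against 4.54 to 4.55. R6/2 replicate 2 was highest for Pcdhb3, at 6.51 against 6.21 to 6.24, and lowest for Pcdh10, at 8.05 where the others all stood at 8.18.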

How the results depend on the processing

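The count of 1 called member by genotype fell to 0 without the cohort term, with the Actb covariate and at a threshold of 0.01. It rose to 2 on the values as deposited, after quantile normalization, with array weights and with a gene's probe sets averaged, Pcdhb21 joining Pcdhb9. With 1 array left out it ran from 1 to 2. Among brighter probe sets Pcdhb9 was not tested and Pcdhb21 was the 1 called. Pcdhb9 kept its direction in all 22 of its alternatives and its call in 19. Of 666 genotype differences of the members under alternatives, 42 had the opposite sign to the value reported. None of these was called, and only Pcdhb9 and Pcdhb21 were called by genotype over both cohorts in any alternative. The clustered median of 0.03 went to 0.0954 among brighter probe sets, where 2 clustered genes remained. Otherwise it shifted by less than 0.0399, the SD of the class median between single arrays within genotype and cohort. The non-clustered median of 0.06 turned to -0.0043 with the Actb covariate, where the same SD for that class was 0.0677. An SD between single arrays is not the error of a difference between groups, so it does not show that a shift was small. With 1 array left out the medians ran from 0.02 to 0.06 (clustered) and from 0.0097 to 0.08 (non-clustered). In M.C the count was 1 on the values as deposited and ran from 0 to 2 with 1 array left out, while in Mith and in the interaction it was 0 in each alternative. Between cohorts it was 3 among brighter probe sets, where 6 members were tested, and 5 to 9 with 1 array left out. No paired analysis was possible because the labels do not match R6/2 arrays to wild-type arrays. The replicate numbers used here were assigned in accession order. Having 7 arrays per genotype and no detection calls limits precision.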
